A study of Caenorhabditis elegans with 2 samples.

Results

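The histone genes of Caenorhabditis elegans were taken as every annotated protein-coding gene whose symbol is his- followed by a number, 72 of the 19973 protein-coding genes that Ensembl places on the nuclear chromosomes of WBcel235 (ce11). RefSeq products named 17 of them as H2A, 16 as H2B, 15 as H3, 5 as the H3.3 variant and 16 as H4. The gene his-24 encodes a linker histone of the H1 type, and his-39 and his-73 carry only a general histone-domain product name and were kept unclassified. Ensembl spreads only 50 distinct symbols over the 72 gene identifiers, so the 72 distinct RefSeq symbols, matched by WormBase identifier, are used throughout. The genes fell into 14 clusters that hold 67 genes and 5 genes that stand alone, when neighbours up to 10 kb apart were joined.

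What was measured is where chromatin bound by the transcription factor ELT-4 was enriched, by chromatin immunoprecipitation and sequencing (ChIP-seq). Both libraries are biological replicates of a single group, whole hermaphrodite late embryos of strain OP111 collected 3 hours after synchronization by egg bleaching. OP111 carries the unc-119 allele ed3 on chromosome III and the integrated transgene wgIs111, which supplies ELT-4 fused at its C-terminus to GFP and FLAG. Sonicated chromatin was precipitated through the GFP tag per the sample description, while a separate label field gives elt-4 as the antibody. The tagged protein comes from a transgene, no group without it was analysed here, and the design holds no comparison between conditions, so no test was made. Whole embryos mix all cell types, and weak occupancy in many nuclei cannot be told apart from strong occupancy in few.

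Histones are the proteins that package DNA. Pairs of H2A, H2B, H3 and H4 form the core of the nucleosome, H1 binds the DNA that enters and leaves it, and the variant H3.3 can replace H3 outside S phase. The core histone genes of this nematode mostly lack introns and stand in clusters of divergently transcribed pairs, H3 with H4 and H2A with H2B, many of which are near-identical copies. ELT-4 belongs to the GATA family of zinc-finger transcription factors, several of which act in the nematode gut, and such factors bind DNA around the letters GATA.

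The strongest region at any histone gene lay in his-24, and the window from 100 bases before to 100 bases after its summit is printed first because it held the only histone region to pass the authors' reproducibility filter. It covers X:14490526-14490726 (WBcel235, plus strand), inside the second coding exon. The window around the strongest core histone region, IV:7488351-7488551 (plus strand), lies inside the intronless coding sequence of the H3 gene his-59. Sequences are from the RefSeq genome. Capitals mark GATAA on either strand, which reads TTATC on the printed strand when the motif is on the other.
his-24 summit window: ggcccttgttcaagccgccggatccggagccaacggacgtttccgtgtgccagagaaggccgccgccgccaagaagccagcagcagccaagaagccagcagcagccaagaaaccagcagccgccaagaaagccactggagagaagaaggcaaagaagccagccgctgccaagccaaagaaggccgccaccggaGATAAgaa
his-59 summit window: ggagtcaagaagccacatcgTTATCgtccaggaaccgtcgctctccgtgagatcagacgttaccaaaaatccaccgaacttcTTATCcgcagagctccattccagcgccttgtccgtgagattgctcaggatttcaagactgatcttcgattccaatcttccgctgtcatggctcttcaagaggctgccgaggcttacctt
The his-24 window held 1 GATAA, within AGATAA at its right end, and its GC content was 61.7%. The his-59 window held 2 GATAA matches and had a GC content of 51.2%. Neither window held TGATAA.

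The spacers between divergent H3 and H4 genes vary in how alike they are. The first one printed shares only short stretches with the others. The his-60 to his-59 spacer (IV:7487993-7488248) lies beside the strongest core histone region. The his-50 to his-49 spacer (V:8847705-8847942) and the his-38 to his-40 spacer (X:7309876-7310109) come from pairs with no region in any list. All are printed on the plus strand with GATAA or TTATC in capitals.
his-60 to his-59 spacer: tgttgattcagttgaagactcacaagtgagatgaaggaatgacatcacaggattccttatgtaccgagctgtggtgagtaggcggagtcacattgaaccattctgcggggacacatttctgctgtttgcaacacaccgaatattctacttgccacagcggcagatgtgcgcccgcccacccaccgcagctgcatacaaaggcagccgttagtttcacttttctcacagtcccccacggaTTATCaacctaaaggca
his-50 to his-49 spacer: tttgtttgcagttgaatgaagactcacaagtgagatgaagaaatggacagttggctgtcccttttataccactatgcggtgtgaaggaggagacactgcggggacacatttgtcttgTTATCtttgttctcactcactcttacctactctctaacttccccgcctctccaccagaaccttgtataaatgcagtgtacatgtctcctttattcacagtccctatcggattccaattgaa
his-38 to his-40 spacer: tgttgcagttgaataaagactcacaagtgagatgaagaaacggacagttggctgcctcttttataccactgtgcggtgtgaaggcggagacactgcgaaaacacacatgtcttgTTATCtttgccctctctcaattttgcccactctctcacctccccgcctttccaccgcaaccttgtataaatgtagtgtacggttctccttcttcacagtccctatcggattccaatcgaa
The his-50 to his-49 spacer is 238 bases long and occurs again, letter for letter, between his-28 and his-27 at V:8889800-8890037. A read that lies within either copy matches both.

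The coding sequences diverge further than the proteins do. All 15 H3 genes encode a single protein, yet their 408-base coding sequences (without the stop codon) differed from that of his-59 at 19 to 37 positions. Bases 173 to 233 of the coding sequence, counted from the first base of the start codon, are printed in coding direction for 8 H3 genes, with capitals where a base differs from his-59. The stretch was chosen because it spans the his-59 summit. The first 4 genes had a pooled region and the other 4 had none.
his-59: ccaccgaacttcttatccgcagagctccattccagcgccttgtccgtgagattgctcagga
his-63: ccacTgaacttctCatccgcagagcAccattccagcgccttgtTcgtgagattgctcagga
his-32: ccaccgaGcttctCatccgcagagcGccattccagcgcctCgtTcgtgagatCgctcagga
his-42: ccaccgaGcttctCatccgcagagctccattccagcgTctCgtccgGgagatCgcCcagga
his-45: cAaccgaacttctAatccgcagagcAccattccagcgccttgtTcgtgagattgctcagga
his-13: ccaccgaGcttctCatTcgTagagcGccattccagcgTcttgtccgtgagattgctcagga
his-49: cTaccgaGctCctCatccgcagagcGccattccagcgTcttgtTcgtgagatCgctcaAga
his-40: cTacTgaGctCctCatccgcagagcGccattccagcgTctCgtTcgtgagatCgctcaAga
The his-63 and his-45 stretches differed from his-59 at 4 positions each, and the his-40 stretch differed at 11. The his-13 stretch is the same in his-9 and his-25, and the his-49 stretch is the same in his-27 and his-17.

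In the list that the authors called on both replicates pooled, 23 of the 72 histone genes (31.9%) had a region whose summit lay in the gene body or within 1000 bp upstream. The same held for 60.0% of all protein-coding genes. At a q-value of at most 0.05 the count was 3 histone genes (4.17%), against 5.67% of all genes, and 1 (1.39%) had a peak in the list filtered by irreproducible discovery rate (IDR), against 1.65%. The pooled list holds 30000 regions and was made as input for that filter, so most of its entries are weak, and only 4.26% of them reach a q-value of 0.05.

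The share was alike in the replicate lists. Replicate 1 had a region in 22 histone genes (30.6%), against 61.8% of all genes, and replicate 2 also had 22, against 61.5%. At a q-value of at most 0.05 in the list of 1 replicate, the counts parted: replicate 1 had 4 such genes (his-24, his-59, his-60 and his-72; background 6.15%) and replicate 2 had 0 (background 4.20%). For 15 histone genes (20.8%) the strongest pooled region overlapped a region in both replicate lists, against 36.8% of all genes. No list had a region for 44 histone genes (61.1%), against 23.6% of all genes.

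By class, a pooled region was present for the single H1 gene, 5 of 17 H2A genes, 5 of 16 H2B genes, 4 of 15 H3 genes, 3 of 5 H3.3 genes, 4 of 16 H4 genes and 1 of the 2 unclassified genes. These 23 genes shared 17 distinct regions, because the intervals of divergent genes overlap. Of the 17 regions, 9 fell in the intervals of both genes of a divergent pair, at 8 such pairs, and 8 fell in the interval of a single gene. A region shared by a pair is 1 measurement and cannot be assigned to either gene. The signal of the strongest region per gene ran from 25.3 to 87.5 with a median of 37.0, beside a median of 35.4 over all genes with a region. Signal is the value given by the authors' peak caller, on a scale that is not stated. It is not scaled between the lists, whose medians were 30.5 in the pooled list, 16.4 in replicate 1 and 18.3 in replicate 2, so an SD over the replicates can include a difference in scale.

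**Figure D1:**
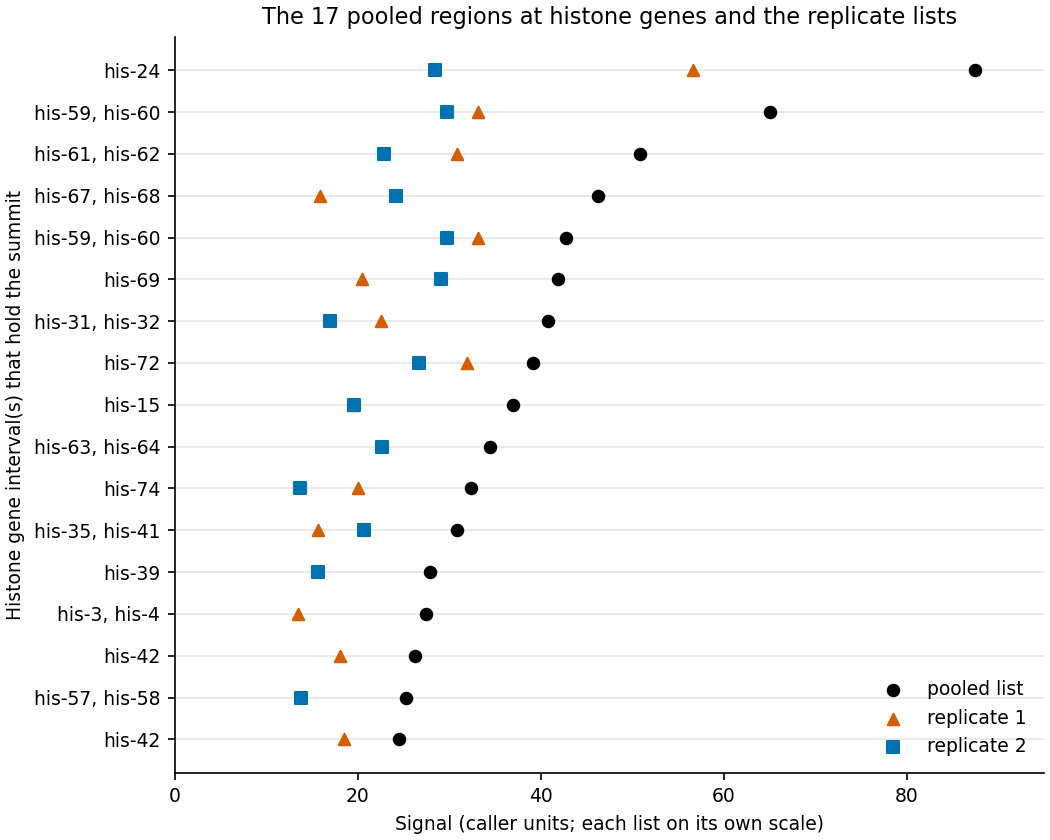
Each row is 1 of the 17 distinct pooled regions at histone genes, labelled by the gene or genes whose interval holds its summit; the x axis is signal in the caller's units, with black circles for the pooled list and orange triangles and blue squares for the strongest overlapping region of replicates 1 and 2. The his-24 region leads the pooled list at 87.5 but its replicate values lie far apart (56.7 and 28.4), 6 rows lack a symbol because that replicate has no overlapping region, and at his-15 the square covers the triangle. Both rows of his-59 and his-60 show the same replicate values, because both pooled regions overlap the same strongest replicate regions. The weaker pooled region also overlaps regions of 19.6 in replicate 1 and 26.6 in replicate 2, which are not drawn.

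All 17 regions overlapped a region of at least 1 replicate. Both replicates had an overlapping region for 11, replicate 1 alone for 3 and replicate 2 alone for 3. Over the whole pooled list, 55.9% of regions overlapped both replicates and 3.61% overlapped neither. The plot of the 17 regions by list shows that the regions seen in only 1 replicate are all in the lower part of the ranking. No SD can be given for these.

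The linker histone gene his-24 (X:14490094-14491119, plus strand) had the strongest region. Its pooled signal was 87.5, rank 172 of 30000, with a q-value of 0.00234, and the region spans X:14490391-14490860. The summit lay 532 bp into the gene, in the second of 2 coding exons. The overlapping region had a signal of 56.7 in replicate 1 (rank 37, q-value 0.00164) and 28.4 in replicate 2 (rank 3669, q-value 0.260), a mean of 42.6 ± 20.0 (SD, n = 2). The region was thus near the top of replicate 1 and much further down in replicate 2, where 2 further regions of 20.9 and 17.3 lay in the same gene. The lowest signal among the 342 IDR peaks was 78.7, and his-24 is the only histone gene above it. Almost none of its interval is repeated in the genome: 0.0502% of its 36-base words (36-mers) occur again.

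The strongest core histone region belonged to the divergent pair his-59 (H3) and his-60 (H4) on chromosome IV. The region at IV:7488216-7488685 had a pooled signal of 65.1, rank 1007, with a q-value of 0.0303. Its signal was 33.2 in replicate 1 and 29.8 in replicate 2, a mean of 31.5 ± 2.39 (SD, n = 2). These replicate values lay closer together than those at his-24, with q-values of 0.0352 and 0.216. The summit lay 202 bp into his-59 and 459 bp upstream of his-60. A second, weaker pooled region of 42.8 overlapped the first, with its summit near the end of his-59, and each replicate list also had a second region there, of 19.6 and 26.6.

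The same cluster of 4 genes holds the strongest region of an H2A and H2B pair. The region shared by his-61 (H2A) and his-62 (H2B) had a pooled signal of 50.9, rank 3019, with a q-value of 0.161. Replicate 1 had 30.9 and replicate 2 had 22.9, a mean of 26.9 ± 5.70 (SD, n = 2). The pooled summit, at IV:7486789, lay 244 bp into his-62. The replicate 1 region of 30.9 had its summit at IV:7486545, the start of his-62. A weaker replicate 1 region of 26.4 had its summit at IV:7486765, nearer to the pooled summit. In the 4 genes of this cluster, 13.1 to 20.9% of the interval's 36-mers are repeated, and each gene had a region in the pooled list and in both replicate lists.

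**Figure D2:**
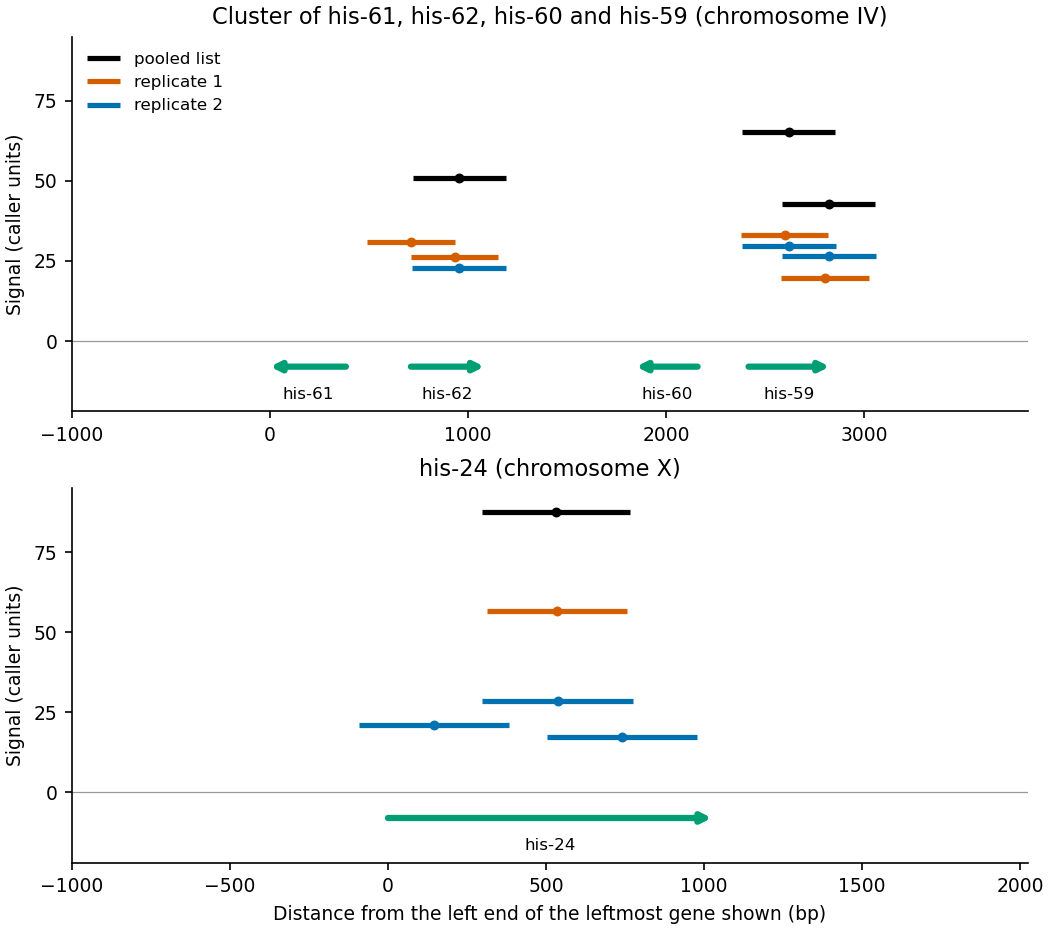
Regions at the his-61, his-62, his-60 and his-59 cluster (top) and at his-24 (bottom); the x axis is distance in bp from the left end of the leftmost gene, the y axis is signal in the caller's units, horizontal lines are regions, dots are summits and green arrows are genes. The pooled summits lie over the bodies of his-62, his-59 and his-24, and the spacers between divergent genes hold none of them.

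Among the other H3 and H4 genes, his-31 and his-32 on chromosome IV shared a region of 40.8, with 22.6 in replicate 1 and 17.0 in replicate 2 (mean 19.8 ± 3.96, SD, n = 2) and its summit in the H3 gene his-32. The H3 gene his-63 and the H4 gene his-64 shared a region of 34.5 that had no counterpart in replicate 1 and 22.7 in replicate 2. Every 36-mer and every 50-mer of the his-63 summit window occurs elsewhere in the genome, so reads within that window cannot be told apart from its copies. Over the whole region 74.0% of 36-mers are repeated, and the rest occur once. The H3 gene his-42, at the end of the largest cluster, had regions of 26.3 and 24.5, with 18.1 and 18.5 in replicate 1 and none in replicate 2. The pair his-1 (H4) and his-2 (H3) had no pooled region, although replicate 1 had a region of 19.9 and replicate 2 a separate region of 13.8 in their intervals.

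Among the other H2A and H2B genes, the his-35 (H2A) and his-41 (H2B) pair on chromosome V had a region of 30.8, with 15.6 and 20.7 in replicates 1 and 2 (mean 18.2 ± 3.60, SD, n = 2) and the summit in his-35. The his-3 (H2A) and his-4 (H2B) pair had 27.5, with 13.4 in replicate 1 only. The his-57 (H2A) and his-58 (H2B) pair had 25.3, with 13.8 in replicate 2 only, and the summit in an intron of his-57. The region counted for the H2B gene his-15 (37.0, with 19.5 and 19.6 in the replicates) lay 973 bp upstream of it. That summit is nearest to the H2A gene his-16, and it falls in the annotated 3′ UTR of ZK131.11, a gene that is not a histone gene.

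The his-15 region and the second his-42 region, 992 bp upstream, are the 2 summits just inside the 1000 bp limit. Just outside it were a region of 25.6 at 1123 bp upstream of his-17 and a region of 45.3 at 1146 bp upstream of his-70. Neither his-17 nor his-70 had a pooled region by the rule used.

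The H3.3 genes, which do not depend on S phase, have little repeated sequence, between 0 and 10.4% of the 36-mers in their intervals. His-69 had a pooled signal of 41.9, with 20.5 and 29.1 in overlapping regions of replicates 1 and 2 (mean 24.8 ± 6.11, SD, n = 2), although the replicate 2 summit lay outside the gene's interval. His-72 had 39.2, with 32.0 and 26.7 (mean 29.4 ± 3.70, SD, n = 2). Its q-value was 0.0406 in replicate 1, but 0.316 in replicate 2 and 0.418 in the pooled list. His-74 had 32.4, with 20.1 and 13.7 (mean 16.9 ± 4.50, SD, n = 2), and its summit lay in an intron. The other H3.3 genes had no pooled region: his-71 had 12.3 in replicate 1 only, and his-70 had 13.7 in replicate 2 only.

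The H4 and H2A pair his-67 and his-68 had a region of 46.3 between the genes, 109 bp upstream of his-67, with 15.8 and 24.2 in the replicates (mean 20.0 ± 5.91, SD, n = 2). Of the unclassified genes, his-39 had a region of 27.9 with 15.7 in replicate 2 only, and his-73 had a single region of 13.6 in replicate 1 and none in the pooled list.

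The clusters differed widely. All genes had a pooled region in the his-59 to his-62 cluster and in the his-67 and his-68 pair, whereas the largest cluster, 13 genes on chromosome II from his-16 to his-42, had a region for 2 genes. In that cluster the median gene interval was 100% repeated. The chromosome IV cluster of 6 genes from his-29 to his-34 had a region at 2 genes, his-31 and his-32, whose intervals are 14.6 and 14.3% repeated beside a cluster median of 90.7%. On chromosome V, the cluster of 6 genes at his-49 to his-54 and the cluster of 8 genes that includes his-17, his-27 and his-28 had 0 regions in any list. Every 36-mer in the intervals of the former occurs again in the genome, as do 69.9 to 100% in the latter. A cluster of 4 on chromosome IV, his-45 to his-48, also had none in any list, at 77.3 to 97.4%. Repeated sequence did not go with every absence: his-38 and his-40 (22.2 and 21.2%) and his-37 (0%) had no region in any list either.

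**Figure D3:**
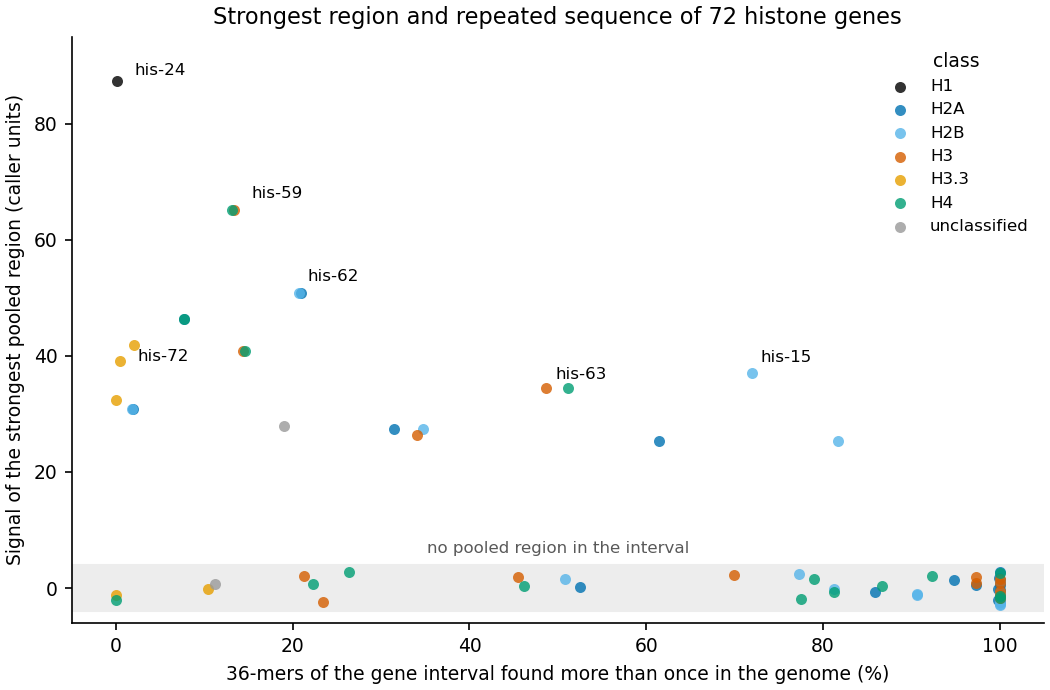
Each point is 1 of the 72 histone genes; the x axis is the percent of the gene interval's 36-mers that occur more than once in the genome, the y axis is the signal of its strongest pooled region in the caller's units, colours are histone classes, and genes with no pooled region lie in the grey band, spread vertically for visibility. Signals above 40 come from genes with under 21% repeated 36-mers, and the points near 100% are all in the band.

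Sequence shared between copies was therefore measured for every gene. The 72 genes have 49 distinct coding sequences and 16 distinct proteins, 37 share their coding sequence with another histone gene, and 65 have no intron in the coding sequence. The median histone interval had 77.4% of its 36-mers repeated, against 0.146% over all genes, and 98.8% of the repeated ones had another copy within a histone interval. Genes with a pooled region had a median of 14.6% (0 to 81.7%), and genes without had 97.3% (0 to 100%). The plot of signal against repeated sequence shows that the ranges overlap but that the genes near 100% had no region.

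The counts were then set beside genes with like amounts of repeated sequence. With at most 5% repeated 36-mers, 6 of 8 histone genes had a region, against 61.9% of all genes. With over 5 to 50%, 13 of 21 had one, against 59.3%, and with over 50%, 4 of 43 had one, against 10.4%. The 503 other genes with over 50% repeated sequence had a region in 53 cases (10.5%). The 44 histone genes with no region in any list comprise 39 with over 50% repeated sequence and 5 with less, namely his-5, his-6, his-37, his-38 and his-40.

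**Figure D4:**
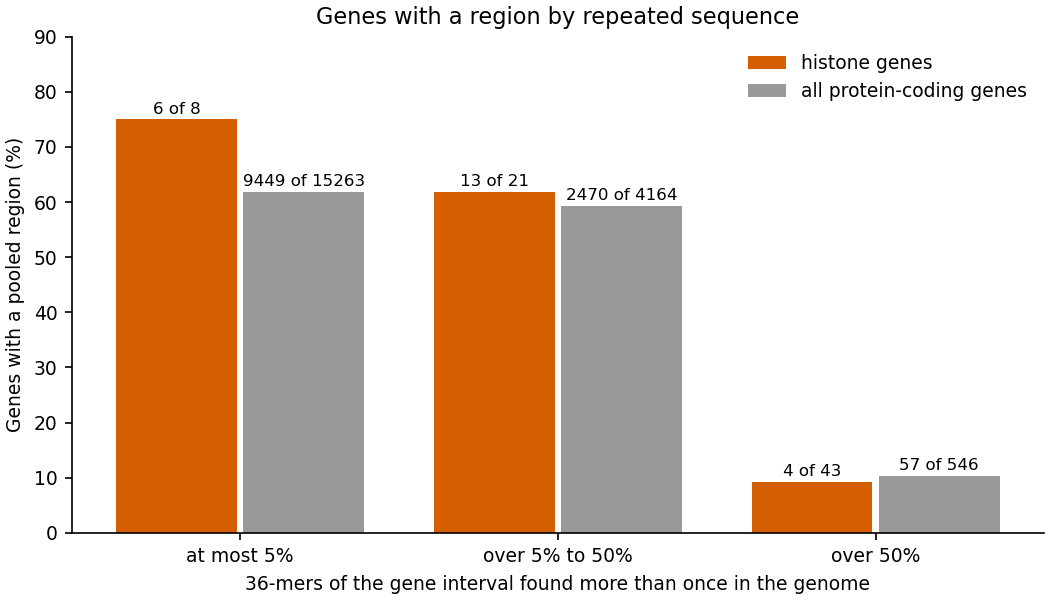
Bars give the percent of genes with a pooled region (y axis, from 0) for histone genes (orange) and all protein-coding genes (grey), by the percent of the gene interval's 36-mers that are repeated (x axis), with counts above the bars. With at most 5% repeated, the counts are 6 of 8 histone genes and 9449 of 15263 genes in all, and where over 50% is repeated they are 4 of 43 and 57 of 546.

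Histone intervals are also short, from 1141 to 2576 bp with a median of 1384 bp, beside 3027 bp over all genes. Within that range of lengths, 45.4% of all genes had a region. Taking length and repeated sequence together, 19 of 29 histone genes (65.5%) with at most 50% repeated 36-mers had a region, against 47.2% of all such genes. With over 50%, the counts were 4 of 43 histone genes against 5.40%. These counts, and those by repeated sequence above, take both genes of a divergent pair that share a region. With each region counted once, histone intervals of any repeated share held 24.5 regions per 100 kb, against 32.3 over all gene intervals. How the authors treated reads that match several places is not given in the labels or file headers, and its part in these counts was not tested.

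The summit windows at 3 of the 4 genes with over 50% repeated intervals sat over sequence that is found once or nearly so. None of the 36-mers in the summit window shared by his-57 and his-58 is repeated, and 9.04% are repeated in the his-15 window. Over the whole region, the repeated share is 20.7% at his-57 and his-58 and 3.45% at his-15. The window of the region at his-64, in the neighbouring his-63, is the exception at 100%. Of the 17 summit windows, 6 had no repeated 36-mer, against 87.6% of all pooled windows, and 2 were repeated over more than 50% of their length, against 1.47%.

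Of the 17 summits at histone genes, 14 were in a histone gene body and 3 only upstream, a split that was not counted over all pooled summits. The upstream stretch of a divergent gene covers its partner's body, so the layout enters this count. By gene, 18.1% of histone genes had a summit in their own body, against 49.9% of all genes, without matching for the length of the body. By annotation, 12 (70.6%) were in coding sequence, 2 in introns, 2 between genes and 1 in a 3′ UTR. Of all pooled summits in gene intervals, 47.8% were in coding sequence, which makes up 32.9% of the bases in those intervals and 39.3% of the bases in histone intervals. Nearly all pooled regions (99.97%) are 470 bp wide, longer than most histone coding sequences, so a summit in a coding sequence does not place ELT-4 there to the base.

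Of the motifs searched in the histone windows, TGATAA occurred in 0 of 17 windows, against 12.5% of all pooled windows, AGATAA in 1 (his-24), against 8.41%, and GATAA in 4, against 30.2%. All motifs were searched on both strands, and a match to TGATAA or AGATAA is also a match to GATAA. The 17 windows had a mean GC content of 47.7% ± 8.36 (SD over windows), against 43.2% ± 7.36 over the pooled list and a mean of 53.3% over IDR peaks. Histone gene intervals as a whole are also richer in GC, with a median of 46.0%, against 35.7% over all gene intervals. In the stretch from 250 bases before to 50 bases after the gene start, GATAA was present in 56 of 72 histone genes (77.8%), against 57.6% of all genes, and AGATAA in 26 (36.1%), against 21.2%. TGATAA was present in 13 (18.1%), against 30.2%. These 72 stretches have 51 distinct sequences, so the counts repeat copies. The stretches of a divergent pair also overlap in the spacer, so a single match can count for both genes. No share was counted with each spacer taken once, so these shares are not like for like with those of all genes. The spacers printed above hold such matches in pairs with and without a region.

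Genes that work with histones gave a wider view. Of 12 linker histones and variants with other symbols, 10 had a pooled region, as did 11 of 12 genes for histone chaperones and histone mRNA processing and 11 of 13 DNA replication genes, read against the 60.0% of all genes. Their intervals are longer than histone intervals, with medians of 2035, 3137.5 and 4460 bp. At a q-value of at most 0.05 there were 4 genes of the 37, beside 5.67% of all genes, and 1 had an IDR peak, beside 1.65%. The linker histone gene hil-7 had 77.2, with 27.0 and 41.4 in replicates 1 and 2. The gene chaf-2, for a subunit of the chromatin assembly factor CAF-1, had the IDR peak, at 97.0 (rank 87), with 42.8 and 58.8. The nucleosome assembly gene nap-1 had 65.8, with 22.4 and 34.8, and the cyclin E gene cye-1 had 73.4, with 31.7 and 42.8. In all 4 of these genes replicate 2 had the higher value, whereas at his-24 replicate 1 did. The pooled summits lay upstream of hil-7 and chaf-2, and in the bodies of nap-1 and cye-1. Whether the upstream summits also fall in the intervals of other genes was not examined here.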

How the data were processed

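ChIP-seq of tagged ELT-4 in 2 biological replicates of 1 group was deposited as region lists in narrowPeak layout on ce10 and ce11, 30000 regions per replicate, 30000 for the replicates pooled, and 342 IDR peaks. The ce10 lists were not used here. Signal is the value given by the authors' peak caller in the deposited lists. The −log10 q-value of the deposited lists was turned into a q-value. The sources used here do not give the aligner, caller, read filters or depths, so no interval from depth can be given. All coordinates are 1-based on WBcel235, which is ce11, with Ensembl 115 genes, and RefSeq symbols, products and genome sequence. A region belonged to a gene when its summit lay in the gene body or up to 1000 bp upstream. Lists were matched by an overlap of at least 1 bp, taking the strongest overlapping region. Repeated sequence is the percent of 36-mers found more than once in the genome on either strand, with 50-mers as an alternative, and summit windows reach 100 bp to each side. Values are counts, medians and ranges set beside all protein-coding genes. No tests were made.

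Members and gene lists were chosen with earlier results of these data known. Genes were named if they had a region at a q-value of at most 0.05 or an IDR peak, or were nearest to the strongest region of a cluster, and of the other chromatin genes those at the same q-value. Further genes (among them those with no region, with regions in 1 replicate, or just outside the 1000 bp limit) were named after their values were seen. Python 3.11.15, pandas 2.3.3 and NumPy 2.4.6 were used, and the counting of repeats, the assignment to genes and the overlap of lists were tested on simulated data.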

Additional observations from a re-analysis of the deposited data

How the results depend on the processing

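The share of histone genes with a pooled region was below that of all genes under the 8 settings that changed the interval, the list or the strength of the regions, with no test of the difference. It was above the 60.0% of all genes under the 3 settings that kept histone genes with less repeated sequence, but that 60.0% was not filtered in the same way. The count of 23 became 13 with gene bodies only and 3 in the strongest 10% of the list. It was 6 of 8 genes (75.0%) with at least 95% unique 36-mers, 10 of 12 (83.3%) with at least 95% unique 50-mers and 19 of 29 (65.5%) with at most 50% repeated 36-mers, the last 2 settings chosen after seeing the data. Among all genes with at most 5% repeated 36-mers the share was 61.9%, and among all genes of histone interval length with at most 50% it was 47.2%. No such share was counted for 50-mers, and genes that share a region are each counted. The number of genes at a q-value of at most 0.05 was 3, 1 at 0.01, and 0 to 4 in the list of a single replicate. It was 4 without replicate 2 and 0 without replicate 1. The number with a strongest region seen in both replicates was 15, and became 8 with gene bodies only and 3 in the strongest 10%. The IDR count of 1 did not move under the 4 settings tried.

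The median signal of the strongest region, 37.0, was 39.2 with 500 bp upstream, 34.5 with 2000 bp, 34.5 with gene bodies only, and 35.8 with regions that only overlap the interval. It was 40.8 in the strongest 50% of the list, 65.1 in the strongest 10%, 35.8 and 44.1 with unique 36-mers and 50-mers, and 40.8 with at most 50% repeated 36-mers (chosen after seeing the data). In the replicate lists, which have their own scale, it was 19.9 to 20.7. Over all genes the share of 60.0% was 55.3% with 500 bp, 68.1% with 2000 bp, 49.9% with gene bodies, 63.6% by overlap, 39.5% in the strongest 50%, 11.6% in the strongest 10% and 61.5 to 61.8% in the replicate lists. Where a smaller set of genes or regions was used, the counts fell by construction. The cause of the other shifts was not tested. No paired analysis was possible because there is 1 group. With 2 replicates, no depths and no control library analysed here, low signals cannot be told from background.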
